A study of Mus musculus with 60 samples.

Results

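Hearts of control (CON) mice collected at lights off, Zeitgeber time 12 (ZT12), were compared with CON hearts collected at lights on, ZT0, which the labels write as ZT24. The comparison held 10 libraries, 5 per time, each from 1 heart and each matched to its column by library name, out of 60 in the series. Across the series, RNA was sequenced from whole ventricles of male C57BL/6 mice of 2 genotypes at 6 times of day in a light:dark cycle with food always available. CON mice carried the αMHC-rtTA transgene alone, so that the rtTA activator was driven by a cardiomyocyte promoter in both groups compared, and their dnOGAh littermates also carried TRE-EGFP-dnOGA, an inducible dominant negative form of the enzyme OGA, which removes O-GlcNAc from proteins. All mice, CON included, received doxycycline (DOX) from 10 weeks of age, as 1 injection of 100 µg and then 2 weeks of diet with 1 g/kg. Of the other libraries, 20 CON hearts (ZT4, ZT8, ZT16 and ZT20) and 10 dnOGAh hearts (ZT0 and ZT12) entered only the comparisons named below.

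The circadian clock of a heart cell is a transcription loop that runs with a period of about a day. The activators BMAL1 (gene Arntl) and CLOCK, or its paralog NPAS2, bind E-box sequences and switch on the Per and Cry genes, whose proteins return to silence the activators, and the REV-ERB and ROR receptors tie in the transcription of Arntl through response elements called ROREs. Output factors of the PAR bZIP family (Dbp, Tef and Hlf) and their opponent Nfil3 act on D-boxes and carry the rhythm to metabolic genes. In night-active mice, ZT12 opens the active, feeding phase and ZT0 opens rest, and circulating glucocorticoid normally peaks near lights off.

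The 10 libraries held 11609932 to 48194288 counts on genes, with replicate 5 the deepest at each time, and mitochondrial transcripts took 27.7 to 34.2% of counts at ZT0 and 24.9 to 34.97% at ZT12. All 8 cardiomyocyte markers were measured, with a summed level of 52235 to 60942 counts scaled to 1000000 per library (CPM) at ZT0 and 53783 to 61080 CPM at ZT12, and none of them was called. Fibroblast markers (0 of 10 called) summed to 1975 to 2200 CPM and 1784 to 2308 CPM, and macrophage markers (0 of 12 called) to 267 to 302 CPM and 253 to 383 CPM. At an unadjusted p under 0.05 by edgeR there were 6 of the 12 macrophage and 1 of the 10 fibroblast markers, beside 13.0% of all genes. Of the 12 macrophage markers, 9 had a log2 fold change above 0, with a median of 0.24. Atrial markers varied most between hearts, from 139 to 828 CPM at ZT0 and from 38.1 to 1315 CPM at ZT12, where replicate 2 held the highest value. Few markers reached the count minimum for lymphocytes (3 of 11), neutrophils (2 of 8) and adipocytes (3 of 9). The same held for skeletal muscle (3 of 10) and mesothelium (2 of 6). Most did for erythroid cells and platelets (8 of 10) and for nerve (5 of 6). Of the markers tested in these types, 0 were called. The neutrophil marker Ngp and the satellite cell marker Pax7 were at 0 counts in all 10 libraries. In bulk tissue, fewer cells of a type and less RNA per cell cannot be told apart. Levels below are CPM after TMM scaling, and a change is called where the edgeR quasi-likelihood test gave a Benjamini-Hochberg adjusted p under 0.05 over all genes tested.

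Between ZT0 and ZT12, the ventricles turned over most of the core clock and a set of hormone-responsive, vascular and matrix transcripts. The lists of fuel-handling genes gave no call, beside a share of only 1.61% called among all genes. Of 13917 genes tested, 224 were called (1.61%), 116 of them higher at ZT12 (0.834%) and 108 lower (0.776%). Changes were mostly moderate, with a median size of 0.64 on the log2 scale among called genes, and 27 of the higher and 20 of the lower genes passed 2-fold (0.194% and 0.144%). At an unadjusted p under 0.05 there were 1804 genes (13.0%). The 5 libraries of one time lay entirely above those of the other for 186 of the called genes and for 486 of all genes tested (3.49%), 214 higher and 272 lower (1.54% and 1.95%). At the edge of the threshold, Lonrf1 was just inside (log2 fold change 0.65 ± 0.16, edgeR adjusted p = 0.0496) and Ap1m1 just outside (log2 fold change -0.30 ± 0.07, edgeR adjusted p = 0.0501). The median log2 fold change of all genes was 0.0014. Leaving out 1 library at a time gave 154 to 258 calls, and 122 of the 224 genes were called in all 10 such fits. Without replicate 5 of each time, the 2 deepest libraries, 102 genes were called. The number of calls was 120 when all 30 CON libraries shared 1 estimate of the spread and 243 when ZT4 replicate 4 was left out of that fit.

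Most activators were higher at lights on. Arntl showed the largest fall of any clock gene, from 21.7, 18.5, 21.3, 20.7 and 20.7 CPM in the 5 ZT0 hearts to 0.568, 0.958, 0.681, 1.79 and 0.677 CPM in the 5 ZT12 hearts. Every ZT12 heart was below every ZT0 heart, and the level was 21.8-fold lower (log2 fold change -4.44 ± 0.22, edgeR adjusted p = 2.5e-09). Clock, its partner, was also lower at ZT12 but by less, from 34.0, 34.8, 34.9, 36.6 and 37.9 CPM to 19.8, 18.0, 17.4, 18.4 and 18.8 CPM (log2 fold change -0.95 ± 0.08, edgeR adjusted p = 1.7e-06). The spread within each time was small for Clock, so that a change of 1.93-fold separated the groups completely. Npas2, the paralog of Clock, read 6.86, 4.14, 7.98, 3.52 and 5.57 CPM at ZT0 and 1.54, 1.03, 1.79, 1.06 and 0.996 CPM at ZT12 (log2 fold change -2.17 ± 0.27, edgeR adjusted p = 0.00022), whereas Arntl2, a paralog of Arntl with low levels in these hearts, overlapped between the times (1.83 to 2.99 and 2.13 to 4.59 CPM, edgeR adjusted p = 0.74). Thus 3 of the 4 activators tested were called lower and none higher, with a list median log2 fold change of -1.56.

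Promoter windows from RefSeq (GRCm38.p6, 250 bases before to 50 after a start) were searched for clock and hormone motifs, and 64 of the 79 called genes named here had at least 1 window. The windows below are shown because they hold more than 1 match, or a match to a motif that is rare in promoters, in genes that differed between the times. Capitals mark the matches: CACGTG for the E-box in Ciart, TTATGTAA for the D-box in Per3, the RORE in Arntl and Leo1, and the glucocorticoid response element (GNACA, any 3 bases, TGTNC) in Mt1.
Ciart (chr3:95882179-95882478, strand -): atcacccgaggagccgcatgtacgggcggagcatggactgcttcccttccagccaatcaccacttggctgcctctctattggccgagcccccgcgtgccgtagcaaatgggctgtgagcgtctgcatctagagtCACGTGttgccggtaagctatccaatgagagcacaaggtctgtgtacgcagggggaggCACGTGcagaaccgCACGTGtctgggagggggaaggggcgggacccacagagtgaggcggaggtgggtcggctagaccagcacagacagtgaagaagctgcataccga
Per3 (chr4:151044616-151044915, strand -): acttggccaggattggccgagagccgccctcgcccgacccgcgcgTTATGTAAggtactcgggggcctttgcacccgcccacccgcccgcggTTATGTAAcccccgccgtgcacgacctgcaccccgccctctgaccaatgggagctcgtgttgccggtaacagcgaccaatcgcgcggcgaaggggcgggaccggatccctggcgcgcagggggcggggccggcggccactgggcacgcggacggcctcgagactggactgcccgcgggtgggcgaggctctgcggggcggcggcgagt
Arntl (chr7:113207261-113207560, strand +): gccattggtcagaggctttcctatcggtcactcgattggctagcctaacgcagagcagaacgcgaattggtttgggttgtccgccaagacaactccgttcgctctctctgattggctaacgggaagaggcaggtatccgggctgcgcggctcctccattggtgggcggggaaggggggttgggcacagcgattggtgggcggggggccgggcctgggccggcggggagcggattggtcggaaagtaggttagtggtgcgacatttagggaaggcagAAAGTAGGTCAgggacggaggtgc
Leo1 (chr9:75441274-75441573, strand +): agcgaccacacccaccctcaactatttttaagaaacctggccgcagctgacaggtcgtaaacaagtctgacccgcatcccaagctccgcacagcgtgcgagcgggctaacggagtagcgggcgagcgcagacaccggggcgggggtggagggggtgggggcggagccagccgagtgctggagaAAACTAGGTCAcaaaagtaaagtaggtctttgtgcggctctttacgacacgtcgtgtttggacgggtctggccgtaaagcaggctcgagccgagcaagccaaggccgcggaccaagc
Mt1 (chr8:94178839-94179138, strand +): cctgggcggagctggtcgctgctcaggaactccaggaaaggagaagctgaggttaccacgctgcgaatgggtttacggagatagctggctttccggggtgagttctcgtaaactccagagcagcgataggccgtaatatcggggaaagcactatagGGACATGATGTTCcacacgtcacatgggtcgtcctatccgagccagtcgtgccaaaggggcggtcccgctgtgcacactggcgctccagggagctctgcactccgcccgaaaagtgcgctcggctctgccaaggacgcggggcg
The 3 E-boxes of Ciart began at -116, -58 and -44 relative to the start, negative values being upstream, and the 2 D-boxes of Per3 at -205 and -158. The marked RORE of Arntl (AAAGTAGGTCA) began at 26 and that of Leo1 (AAACTAGGTCA) at -67, and the element of Mt1 at -94. The Arntl window also holds aaagtaggtta upstream of its marked RORE. That stretch differs from the marked RORE only in the next to last letter and was not a match in this search. Both strands were searched, and no match overlapped another in these windows. An E-box stood in 14.0% of the 121 windows of genes called higher at ZT12, in 8.4% of the 119 windows of genes called lower and in 9.69% of the windows of all genes tested. The D-box (TTATGTAA or TTACGTAA) was found in 3, 0 and 96 windows of those sets (2.48%, 0% and 0.73%), and the RORE in 0, 2 and 22 (0%, 1.68% and 0.167%). The glucocorticoid element was found in 4.13% of the higher, 0.84% of the lower and 0.35% of all tested windows. A match is a description of the letters, not of binding.

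Most of the repressor limb was high at lights off. Per2 read 4.53, 5.03, 4.05, 2.39 and 2.44 CPM at ZT0 and 20.2, 23.2, 12.2, 15.8 and 20.6 CPM at ZT12, with no overlap and a 5.04-fold higher level (log2 fold change 2.33 ± 0.22, edgeR adjusted p = 8.0e-06). Per3, whose D-boxes are shown above, went from 6.37, 7.91, 4.66, 5.21 and 4.76 CPM to 28.7, 35.8, 24.9, 27.4 and 25.3 CPM (log2 fold change 2.29 ± 0.15, edgeR adjusted p = 1.8e-07). Per1, which also answers to glucocorticoid, was more variable, with 16.6, 10.6, 15.0, 24.2 and 11.9 CPM at ZT0 and 42.8, 77.3, 34.0, 43.9 and 53.4 CPM at ZT12 (log2 fold change 1.70 ± 0.22, edgeR adjusted p = 0.00029). The lowest ZT12 heart still exceeded the highest ZT0 heart for each of the 3 Period genes. Of the cryptochromes, Cry2 rose from 24.0 ± 1.20 to 37.7 ± 4.31 CPM (SD, n = 5 each), with log2 fold change 0.66 ± 0.09 (edgeR adjusted p = 0.00045). Cry1 had a log2 fold change of -0.33, the other way, and did not pass the test (9.54 to 14.6 CPM at ZT0, 7.06 to 11.7 CPM at ZT12, edgeR adjusted p = 0.38). All 5 members, Cry1 included, had an unadjusted p under 0.05 by edgeR. In all, 4 of 5 members were called higher and 0 lower, and the list median was 1.70.

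**Figure D1:**
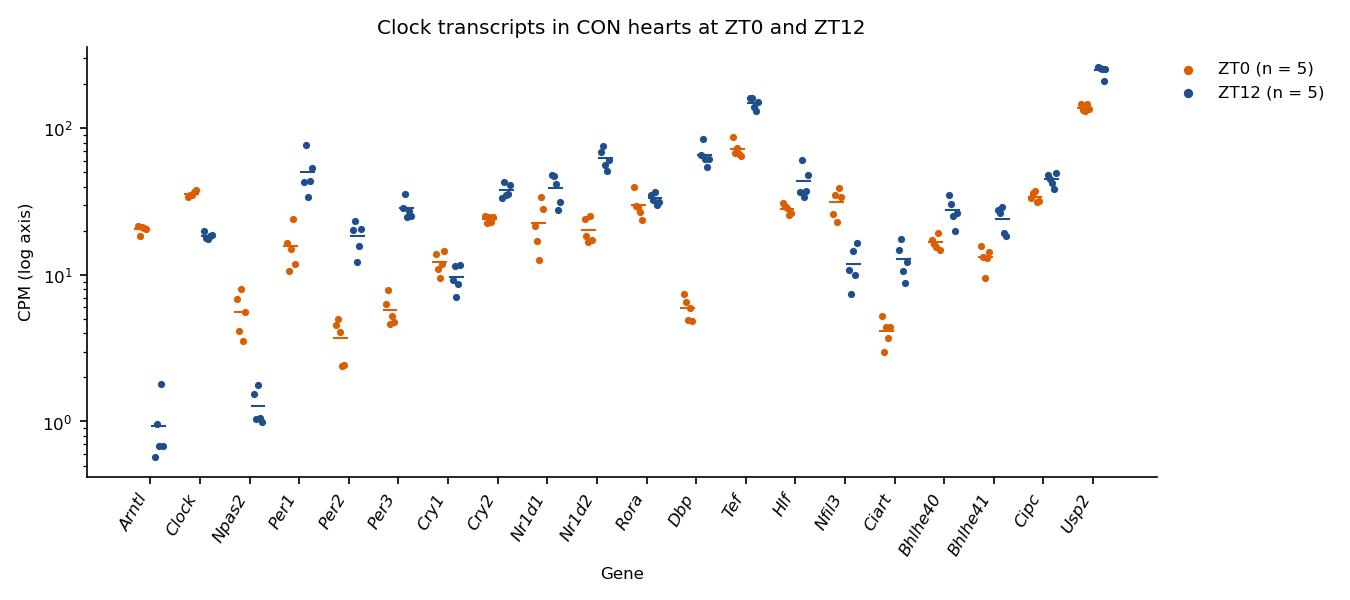
CPM on a log axis for 20 clock transcripts in each of the 5 ZT0 (orange) and 5 ZT12 (blue) CON hearts, with a short line at each mean. Arntl, Clock, Npas2 and Nfil3 sit lower at ZT12 without overlap, Per1, Per2, Per3 and Dbp sit higher without overlap, and Cry1, Nr1d1 and Rora overlap.

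The PAR bZIP output factors were also higher at lights off. Dbp had the largest rise of any called gene, from 7.43, 6.49, 4.93, 5.91 and 4.88 CPM at ZT0 to 65.6, 85.0, 62.2, 54.4 and 61.6 CPM at ZT12, 11.2-fold (log2 fold change 3.49 ± 0.14, edgeR adjusted p = 2.1e-10). Tef rose by 2.07-fold, from 87.3, 67.9, 73.1, 67.0 and 64.4 CPM to 162, 159.9, 139, 131 and 151 CPM (log2 fold change 1.05 ± 0.09, edgeR adjusted p = 3.7e-06). Hlf, the remaining PAR bZIP factor, was 25.5 to 30.9 CPM at ZT0 and 33.9 to 61.3 CPM at ZT12 (log2 fold change 0.63 ± 0.13, edgeR adjusted p = 0.022). Its call was lost without ZT0 replicate 3 (adjusted p = 0.053), ZT0 replicate 5 (0.062) or ZT12 replicate 5 (0.072). Nfil3, which opposes these factors at the D-box, moved the other way, from 25.9, 34.9, 23.0, 39.0 and 34.0 CPM to 10.8, 7.37, 14.5, 9.96 and 16.5 CPM (log2 fold change -1.39 ± 0.19, edgeR adjusted p = 0.00044). All 4 members of this list were therefore called, 3 higher and 1 lower.

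Additional repressors of BMAL1:CLOCK rose as well, with 4 of 5 called higher and 0 lower. Ciart (CHRONO) went from 5.24, 2.99, 4.44, 3.71 and 4.39 CPM to 14.7, 17.5, 10.6, 8.85 and 12.3 CPM (log2 fold change 1.62 ± 0.19, edgeR adjusted p = 0.00014). Bhlhe41 (DEC2) went from 13.2 ± 2.36 to 24.2 ± 4.90 CPM and Bhlhe40 (DEC1) from 16.7 ± 1.71 to 27.5 ± 5.62 CPM (SD, n = 5 each), with log2 fold changes of 0.86 ± 0.15 and 0.72 ± 0.13 (edgeR adjusted p = 0.0047 and 0.0057). Cipc, which binds CLOCK, rose by less (log2 fold change 0.40 ± 0.09, edgeR adjusted p = 0.025). The Cipc call held in 5 of the 10 fits with 1 library left out and was lost without ZT0 replicates 1, 4 or 5 or ZT12 replicates 1 or 5 (adjusted p of up to 0.0913). Timeless was not called (log2 fold change -0.09 ± 0.13, edgeR adjusted p = 0.83).

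Of the receptors that act on Arntl through ROREs, Nr1d2 (REV-ERBβ) was the only member of 5 called in this comparison. Nr1d2 rose from 24.0, 18.4, 16.6, 25.4 and 17.3 CPM to 69.0, 76.1, 55.8, 50.8 and 61.0 CPM (log2 fold change 1.63 ± 0.13, edgeR adjusted p = 1.8e-06). Nr1d1 (REV-ERBα) read 21.7, 17.0, 12.7, 33.9 and 28.2 CPM at ZT0 and 48.2, 47.3, 41.9, 27.7 and 31.3 CPM at ZT12, and the highest ZT0 heart exceeded the 2 lowest ZT12 hearts (log2 fold change 0.78 ± 0.22, edgeR adjusted p = 0.091). Nr1d1 passed the test without ZT0 replicate 4 (adjusted p = 0.020), its highest ZT0 heart, with 29 CON libraries in the fit (0.022) and with no filter on low counts (0.00075). Rora, which activates Arntl, had a log2 fold change of 0.16 ± 0.12 (edgeR adjusted p = 0.61), and Rorb stood at or under 1.07 CPM in every heart. Among 9 kinases and ligases that set clock protein stability, only Usp2, a deubiquitinase, was called, from 147, 133, 131, 145 and 136 CPM to 264, 258, 254, 212 and 253 CPM (log2 fold change 0.84 ± 0.07, edgeR adjusted p = 4.5e-06). The casein kinases Csnk1d and Csnk1e, the ligase subunits Btrc and Fbxw11, and Gsk3b, Prkaa1 and Prkaa2 had log2 fold changes between -0.28 and 0.14, none past the test.

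Among the 4 genes that the study followed as known targets of the cardiomyocyte clock from earlier work, 2 were called higher. Rhobtb1, an atypical GTPase, rose from 43.4, 30.7, 33.0, 37.5 and 38.7 CPM to 97.1, 84.1, 89.1, 88.2 and 95.7 CPM (log2 fold change 1.31 ± 0.09, edgeR adjusted p = 2.9e-07). Pik3r1, the regulatory subunit of PI3-kinase, rose from 49.5 ± 5.47 to 66.2 ± 5.35 CPM (SD, n = 5 each; log2 fold change 0.42 ± 0.09, edgeR adjusted p = 0.018), and its call was lost without ZT12 replicate 1 (adjusted p = 0.058). Dgat2, which makes triglyceride, and Nampt, which makes NAD, did not pass (log2 fold change 0.24 ± 0.07 and 0.04 ± 0.09).

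Glucocorticoid-responsive genes had more members called higher at ZT12 than any other list, 8 of 18 with 0 lower and a median of 0.52. Besides Per1, the group held Zbtb16, a transcription factor, which went from 11.7, 7.64, 15.4, 8.17 and 8.55 CPM to 30.2, 15.5, 20.5, 21.95 and 28.9 CPM (log2 fold change 1.21 ± 0.20, edgeR adjusted p = 0.0031). Fkbp5, a co-chaperone that restrains the glucocorticoid receptor, went from 15.0, 9.67, 15.9, 14.5 and 14.4 CPM to 25.7, 14.6, 25.6, 34.7 and 33.5 CPM (log2 fold change 0.97 ± 0.19, edgeR adjusted p = 0.011). Mt1, a metallothionein whose promoter is shown above, read 102, 80.3, 101, 135 and 123 CPM and 190.1, 101, 259, 246 and 211 CPM (log2 fold change 0.90 ± 0.19, edgeR adjusted p = 0.022). ZT12 replicate 2 was the lowest of its group for Zbtb16, Fkbp5 and Mt1 and the highest for Per1, and it was inside the ZT0 range for Fkbp5 and Mt1. The Mt1 call was lost in 6 of the 10 fits that left out 1 library, those without ZT0 replicates 1, 2 or 3 or ZT12 replicates 3, 4 or 5 (adjusted p of up to 0.0732).

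The transcription factors Klf15 and Klf9, which control amino acid and energy metabolism, were both in this group and were the 2 called members of 12 Kruppel-like factors. Klf15 rose, with 25.8 to 35.5 CPM at ZT0 and 35.4 to 51.0 CPM at ZT12 (log2 fold change 0.57 ± 0.11, edgeR adjusted p = 0.011) and Klf9 with 132 to 149.6 CPM at ZT0 and 177 to 216 CPM at ZT12 (log2 fold change 0.52 ± 0.07, edgeR adjusted p = 0.00083). Glul (glutamine synthetase) and Tsc22d3 (GILZ) completed the called members, with log2 fold changes of 0.61 ± 0.12 and 0.53 ± 0.11 (edgeR adjusted p = 0.016 and 0.017) and calls kept in 8 of the 10 fits that left out 1 library. Mt2, the neighbour of Mt1, had a larger but more variable difference, with 0 to 0.813 CPM at ZT0 and 0.147 to 3.06 CPM at ZT12 (log2 fold change 2.38 ± 0.81, edgeR adjusted p = 0.20). Other targets of the receptor were not called, among them Sgk1 (log2 fold change 0.21 ± 0.12), Dusp1 (0.06 ± 0.18) and Errfi1 (-0.49 ± 0.18). The lowest log2 fold change of the list was -1.16, that of Angptl4 (below), also not called, and 13 of the 18 members were above 0. The summed level of the list overlapped between the times, 830 to 1714 CPM at ZT0 and 1046 to 1503 CPM at ZT12. Immediate early factors, which mark acute stimulation, had 0 of 15 called and a median of -0.21, and Ier3 had log2 fold change 0.50 ± 0.15 (edgeR adjusted p = 0.14).

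**Figure D2:**
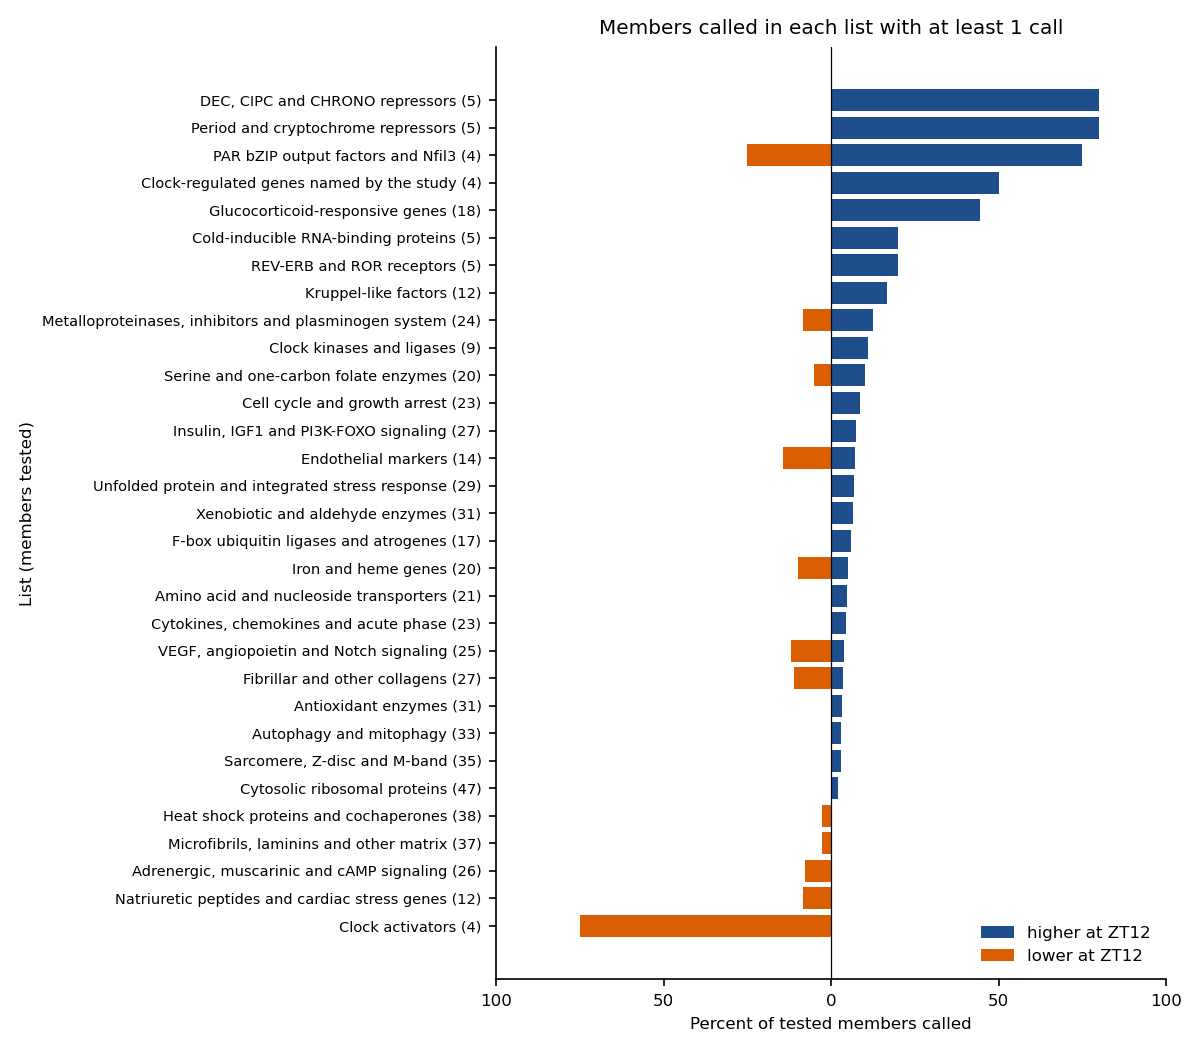
Percent of the tested members (number in brackets) of each gene list called higher (blue, to the right) or lower (orange, to the left) at ZT12, for the 31 lists with at least 1 call. In 4 clock lists 3 of 4 or 4 of 5 members were called in 1 direction, the glucocorticoid list has 8 of 18 members higher, and most other lists have 1 to 3 members called.

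In cardiomyocyte structure, Tcap (telethonin, which caps titin at the Z-disc) was the single called member of 35 sarcomere genes. It read 886, 738, 808, 1195 and 887 CPM at ZT0 and 2227, 2183, 2145, 2234 and 2388 CPM at ZT12, 2.48-fold higher at lights off (log2 fold change 1.31 ± 0.10, edgeR adjusted p = 1.4e-06). The list median was 0.07, and Actc1, cardiac actin, had log2 fold change -0.17 ± 0.07 (edgeR adjusted p = 0.28). Calcium-handling genes (0 of 19), potassium channels (0 of 21) and sodium and pacemaker channels and connexins (0 of 20) gave no call. Their members of largest change, Slc8a1 (-0.25 ± 0.10), Kcna5 (0.49 ± 0.12) and Hcn4 (-0.47 ± 0.13), did not pass (adjusted p = 0.29, 0.056 and 0.078 by edgeR), although Hcn4 was 10.6 to 11.9 CPM at ZT0 and 6.83 to 9.62 CPM at ZT12 without overlap. Hcn4 was called by DESeq2 (adjusted p = 0.022) and limma-voom (0.038).

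The signaling genes that were called lower included the cAMP phosphodiesterases Pde4b and Pde4a, 2 of 26 adrenergic and cAMP genes with 0 higher. Pde4b fell from 21.8 ± 1.56 to 16.1 ± 1.20 CPM and Pde4a from 106 ± 6.79 to 83.1 ± 5.56 CPM (SD, n = 5 each; edgeR adjusted p = 0.017 and 0.016), changes of -0.44 and -0.35 on the log2 scale. The Pde4b call was lost without ZT12 replicate 4 (adjusted p = 0.056), and the Pde4a call without ZT0 replicates 2 or 5 or ZT12 replicates 4 or 5 (0.053 to 0.055). Rcan1, a calcineurin inhibitor that is itself induced by calcineurin, was the 1 called member of 12 cardiac stress genes, 96.0, 88.0, 109.7, 109 and 93.1 CPM at ZT0 against 74.4, 52.4, 72.2, 57.6 and 64.4 CPM at ZT12 (log2 fold change -0.63 ± 0.10, edgeR adjusted p = 0.0020). Cardiac transcription factors had 0 of 13 called, with a log2 fold change of -0.31 ± 0.15 for Zfpm2.

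Fuel metabolism gave no call by edgeR in lists that together covered most of cardiac energy supply, beside 1.61% of all genes called. Outside these lists, Aqp7 and Mid1ip1 were called and are given in the closing section. There were 0 calls among 35 genes of fatty acid uptake and oxidation (median 0.0039), 24 of triglyceride handling, 35 of glucose use and glycogen, 40 of the TCA cycle and its inputs, 15 PPAR and PGC-1 regulators, 28 of lipid synthesis and 18 of NAD metabolism. At an unadjusted p under 0.05, these lists had 3, 6, 3, 1, 3, 3 and 3 members, beside 13.0% of all genes. Pdk4, which restrains glucose oxidation, read 252, 167, 844, 273 and 192 CPM at ZT0 and 374, 75.9, 236, 307 and 131 CPM at ZT12, a spread within each time larger than the difference between them (edgeR adjusted p = 0.57). Angptl4, an inhibitor of lipoprotein lipase, had log2 fold change -1.16 ± 0.34 (edgeR adjusted p = 0.11), with one ZT0 heart at 44.4 CPM. Ppp1r3c, a glycogen-targeting phosphatase subunit, was 68.4 to 74.3 CPM at ZT0 and 44.8 to 64.2 CPM at ZT12 without overlap and missed the threshold (edgeR adjusted p = 0.053). Ppp1r3c passed under DESeq2 (adjusted p = 0.011) and limma-voom (0.035).

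Nuclear genes of the respiratory chain all had positive log2 fold changes, 43 of 43 with a median of 0.19, but 0 were called and 5 reached an unadjusted p under 0.05. Their summed level overlapped between the times, 31937 to 40230 CPM at ZT0 and 32149 to 43325 CPM at ZT12. Atp5o had the largest log2 fold change among them, 0.55 ± 0.20 (edgeR adjusted p = 0.23), with 53.1 to 143 CPM at ZT0 and 99.5 to 172 CPM at ZT12. Cytosolic ribosomal protein genes had 47 of 47 above 0, a median of 0.22 and 1 called, and 17 of them reached an unadjusted p under 0.05. That gene, Rpl3, had log2 fold change 0.35 ± 0.09 (edgeR adjusted p = 0.049), overlapped between the times, and kept its call only without ZT0 replicate 4 or ZT12 replicate 1 in the fits that left out 1 library (adjusted p of up to 0.132). The summed ribosomal level was 12680 to 17136 CPM at ZT0 and 13749 to 18711 CPM at ZT12. Across all genes tested, 50.3% had a log2 fold change above 0 and 13.0% reached an unadjusted p under 0.05. Mitochondrially encoded genes had 0 of 13 called and a median of 0.0016. Proteasome subunits had 29 of 32 above 0 and 0 called.

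Transcripts of the hexosamine pathway and the O-GlcNAc cycle, the system that the dnOGA transgene targets, had 0 of 8 called between the times in CON hearts. At an unadjusted p under 0.05 by edgeR there was 1 of the 8, beside 13.0% of all genes. These are RNA levels at 2 times, and protein O-GlcNAcylation is not measured by them. Ogt, which adds O-GlcNAc, was 47.7 ± 4.38 CPM at ZT0 and 48.3 ± 3.22 CPM at ZT12, and Mgea5 (Oga), which removes it, was 50.7 ± 1.68 and 50.7 ± 6.48 CPM (SD, n = 5 each; edgeR adjusted p = 0.95 and 0.99). Insulin and FOXO signaling had 2 of 27 called, Pik3r1 (above) and the transcription factor Foxo3, which rose, with 32.5 to 39.9 CPM at ZT0 and 45.4 to 62.5 CPM at ZT12 (log2 fold change 0.50 ± 0.10, edgeR adjusted p = 0.0097).

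The vascular signaling genes called were lower at ZT12, apart from Flt1. Vegfa, the main endothelial growth factor, fell from 167, 172, 185, 168 and 168 CPM at ZT0 to 122, 121, 125, 111 and 117 CPM at ZT12 (log2 fold change -0.53 ± 0.07, edgeR adjusted p = 0.00019). Its signaling receptor Kdr (VEGFR2) fell from 91.6, 108, 117, 94.5 and 101 CPM to 60.7, 61.5, 67.2, 57.5 and 61.2 CPM (log2 fold change -0.74 ± 0.08, edgeR adjusted p = 4.6e-05). For ligand and receptor alike, every ZT12 heart lay under every ZT0 heart. Aplnr, the apelin receptor, went from 53.1, 53.8, 42.5, 37.9 and 55.5 CPM to 30.8, 30.5, 29.9, 30.2 and 23.0 CPM (log2 fold change -0.76 ± 0.12, edgeR adjusted p = 0.0013), and Cldn5, a tight junction protein of endothelium, from 31.3, 34.3, 40.4, 45.7 and 37.0 CPM to 17.0, 14.0, 26.5, 27.3 and 17.4 CPM (log2 fold change -0.89 ± 0.16, edgeR adjusted p = 0.0070). Flt1 (VEGFR1), a decoy for VEGF, went the other way, with 80.8 to 89.2 CPM at ZT0 and 97.8 to 115 CPM at ZT12 (log2 fold change 0.31 ± 0.07, edgeR adjusted p = 0.025). The Flt1 call was kept only without ZT0 replicate 1 or ZT12 replicate 2 among the fits that left out 1 library (adjusted p of up to 0.0895).

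Of 25 VEGF, angiopoietin and Notch genes, 3 were called lower and 1 higher, with a median of -0.16. Their summed level did not overlap between the times (1166 to 1230.2 CPM at ZT0 and 1008 to 1102 CPM at ZT12). That sum includes the called genes, so it is no separate result about the 21 members not called. The 14 endothelial markers had 2 called lower, 1 higher and a median of -0.07, and the marker sum overlapped, 1619 to 1742 CPM at ZT0 and 1443 to 1854 CPM at ZT12. Smooth muscle and pericyte markers had 0 of 10 called and summed to 767 to 884 CPM at ZT0 and 683 to 924 CPM at ZT12. The part of cell composition in these changes was not tested beyond these levels.

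**Figure D3:**
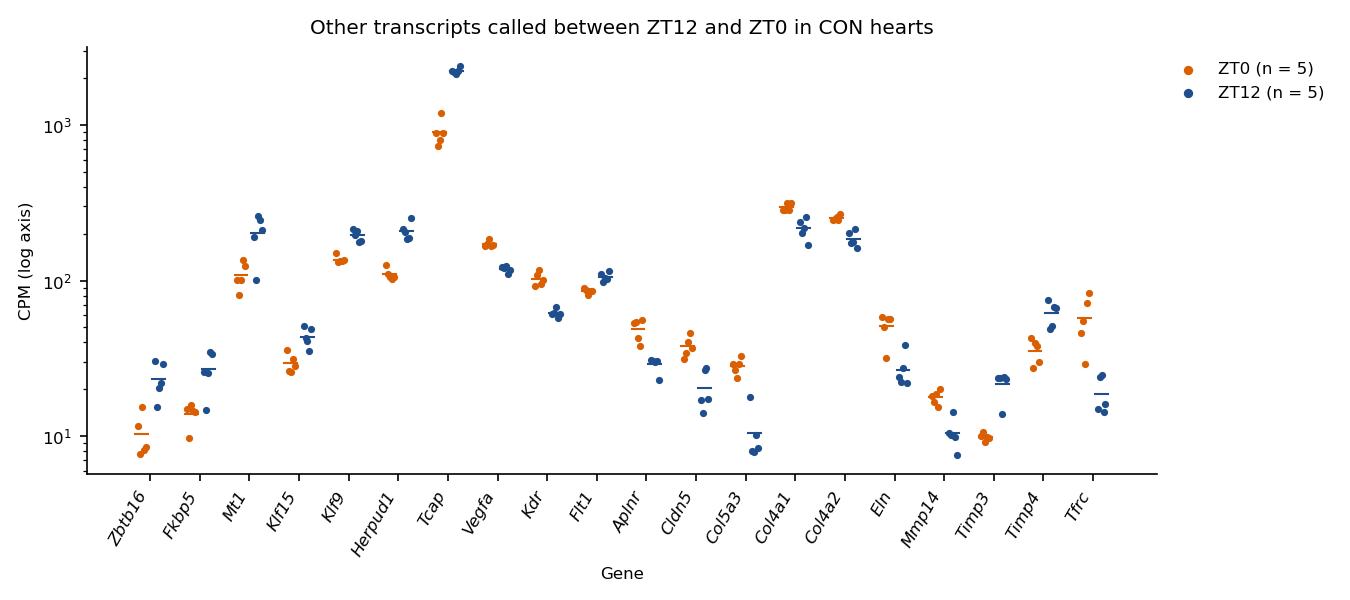
CPM on a log axis for 20 transcripts outside the core clock, each called between the times, in the 5 ZT0 (orange) and 5 ZT12 (blue) CON hearts, with a short line at each mean. Vegfa, Kdr, Aplnr and Tfrc are lower and Tcap, Herpud1 and Klf9 higher at ZT12 without overlap, while Fkbp5, Mt1, Klf15 and Eln overlap.

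A few matrix genes changed. Among 27 collagens, Col5a3 fell from 29.0, 26.6, 23.6, 29.1 and 32.6 CPM to 17.8, 8.04, 7.91, 10.1 and 8.43 CPM (log2 fold change -1.45 ± 0.18, edgeR adjusted p = 0.00022). The basement membrane chains Col4a1 and Col4a2, which share a promoter and are made together, fell by 1.37-fold and 1.35-fold, from 297 ± 15.9 to 217 ± 33.8 CPM and from 252 ± 9.18 to 186 ± 21.6 CPM (SD, n = 5 each; edgeR adjusted p = 0.019 and 0.0070). The Col4a1 call was lost without ZT0 replicate 3 (adjusted p = 0.058) or ZT0 replicate 5 (0.054). Col8a1 was called higher (log2 fold change 0.63 ± 0.15, edgeR adjusted p = 0.036) in the full comparison and in 5 of the 10 fits that left out 1 library, not in those without ZT0 replicates 2 or 5 or ZT12 replicates 1, 3 or 4 (adjusted p of up to 0.101). Eln, the core of elastic fibers, went from 58.7, 50.1, 31.6, 56.5 and 56.7 CPM to 24.0, 22.1, 27.6, 38.2 and 21.99 CPM (log2 fold change -0.92 ± 0.17, edgeR adjusted p = 0.0070) and was the single call among 37 microfibril, laminin and other matrix genes. Enzymes of collagen maturation had 0 of 16 called.

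Of the enzymes that cut the matrix, those called were lower, and the called inhibitors were higher. The membrane-type metalloproteinases Mmp14 and Mmp15 were lower, Mmp14 from 18.2, 16.5, 18.6, 15.5 and 19.9 CPM to 10.5, 10.1, 14.4, 9.82 and 7.57 CPM (log2 fold change -0.79 ± 0.14, edgeR adjusted p = 0.0068) and Mmp15 with a log2 fold change of -0.38 ± 0.08 (edgeR adjusted p = 0.025). In the fits that left out 1 library, Mmp14 kept its call in all 10 and Mmp15 in 4, those without ZT0 replicates 3 or 4 or ZT12 replicates 2 or 5 (adjusted p of up to 0.080). The inhibitors Timp3 and Timp4 were higher, Timp3 from 10.0, 10.7, 9.15, 9.86 and 9.74 CPM to 23.6, 23.5, 14.0, 24.0 and 23.4 CPM (log2 fold change 1.14 ± 0.13, edgeR adjusted p = 0.00012) and Timp4 from 35.5 ± 6.55 to 61.9 ± 11.5 CPM (SD, n = 5 each; log2 fold change 0.81 ± 0.14, edgeR adjusted p = 0.0036). In all, 3 members of this list were called higher and 2 lower of 24. TGF-beta, BMP and Wnt genes had 0 of 31 called, with 6.98 to 9.05 CPM at ZT0 and 4.46 to 6.58 CPM at ZT12 for Wnt5a (edgeR adjusted p = 0.11).

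Several smaller groups held 1 to 3 called genes each. In iron handling, Tfrc, the transferrin receptor that takes up iron, fell from 46.0, 54.7, 29.2, 72.1 and 83.3 CPM to 14.9, 23.9, 24.8, 14.3 and 16.0 CPM (log2 fold change -1.62 ± 0.23, edgeR adjusted p = 0.00076). Ftl1, the ferritin light chain that stores iron, had log2 fold change 0.43 ± 0.10 (edgeR adjusted p = 0.048) and Steap4, a metalloreductase, -0.48 ± 0.11 (edgeR adjusted p = 0.032), and both calls were kept only without ZT0 replicate 4 or ZT12 replicate 2 when 1 library was left out (adjusted p of up to 0.140 and 0.0951). In one-carbon metabolism, the mitochondrial enzyme Mthfd1l rose from 0.425, 0.269, 0, 0.377 and 0.567 CPM to 2.44, 4.13, 2.64, 2.18 and 3.15 CPM (log2 fold change 3.06 ± 0.45, edgeR adjusted p = 0.00096). Phgdh, the first enzyme of serine synthesis, was 1.05 ± 0.155 CPM at ZT0 and 2.62 ± 0.822 CPM at ZT12 (edgeR adjusted p = 0.030), a call kept only without ZT0 replicate 4 or ZT12 replicate 2 (adjusted p of up to 0.0911).

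Protein quality control contributed Herpud1, a part of the machinery that clears misfolded proteins from the endoplasmic reticulum, at 126, 110.2, 105, 103 and 105 CPM at ZT0 and 215, 204, 185, 189 and 252 CPM at ZT12 (log2 fold change 0.93 ± 0.09, edgeR adjusted p = 1.4e-05). Ddit3 (CHOP) was the other of 2 called among 29 stress response genes (log2 fold change 0.45 ± 0.10, edgeR adjusted p = 0.035) and kept its call only without ZT0 replicate 3 or ZT12 replicate 2 (adjusted p of up to 0.101). Cirbp, a cold-inducible RNA-binding protein, rose, with 35.4 to 50.4 CPM at ZT0 and 53.3 to 73.0 CPM at ZT12 (log2 fold change 0.60 ± 0.11, edgeR adjusted p = 0.0055), 1 of 5 in its list. Hspa12a fell, with 15.2 to 21.6 CPM at ZT0 and 10.4 to 12.2 CPM at ZT12 (log2 fold change -0.73 ± 0.11, edgeR adjusted p = 0.00096) as the single call among 38 heat shock genes. Sqstm1, an autophagy receptor, was the 1 call of 33 autophagy genes (log2 fold change 0.37 ± 0.08, edgeR adjusted p = 0.036), and kept it only without ZT12 replicate 2 (adjusted p of up to 0.108).

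Detoxifying enzymes had 2 of 31 called, both higher, namely the epoxide hydrolase Ephx1 (27.8 to 38.0 CPM at ZT0, 44.3 to 58.0 CPM at ZT12, log2 fold change 0.72 ± 0.10, edgeR adjusted p = 0.00045) and the retinal dehydrogenase Aldh1a1 (16.5 to 21.7 and 24.8 to 35.3 CPM, log2 fold change 0.59 ± 0.11, edgeR adjusted p = 0.0074). Slc1a5, a glutamine carrier, was the 1 of 21 amino acid transporters called, at 16.1 to 19.3 and 23.5 to 31.9 CPM (log2 fold change 0.68 ± 0.10, edgeR adjusted p = 0.0012). Wee1, a clock-controlled brake on mitosis, and Gadd45b, a growth arrest gene, were the 2 calls of 23 cell cycle genes (log2 fold change 0.65 ± 0.16 and 0.95 ± 0.21, edgeR adjusted p = 0.047 and 0.031). Wee1 kept its call in 2 of the 10 fits that left out 1 library, those without replicate 1 of either time, and Gadd45b in 4, those without ZT0 replicates 1 or 3 or ZT12 replicates 2 or 5 (adjusted p of up to 0.126 and 0.0937). Ccl11, an eosinophil attractant, was the 1 of 23 cytokine genes called (log2 fold change 0.93 ± 0.22, edgeR adjusted p = 0.046), and kept its call only without ZT12 replicate 3 (adjusted p of up to 0.145). Interferon-induced genes had 0 of 19 called, splicing regulators 0 of 33 and aminoacyl-tRNA synthetases 0 of 20.

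Large changes also occurred in genes of no list. Among those higher at ZT12, Tspan4, a tetraspanin, went from 16.8, 15.4, 13.6, 14.4 and 15.2 CPM to 45.9, 35.1, 41.5, 35.7 and 47.8 CPM (log2 fold change 1.45 ± 0.10, edgeR adjusted p = 3.6e-07). Adh1, an alcohol and retinol dehydrogenase, went from 8.14, 5.41, 9.09, 7.79 and 9.64 CPM to 21.8, 26.0, 21.3, 28.3 and 23.2 CPM (log2 fold change 1.59 ± 0.14, edgeR adjusted p = 4.5e-06), and Arrdc2, an arrestin-domain protein, from 6.99 ± 0.862 to 20.6 ± 5.62 CPM (SD, n = 5 each; log2 fold change 1.56 ± 0.16, edgeR adjusted p = 2.5e-05). None of these genes overlapped between the times, nor did Cys1, which encodes a ciliary protein, or Shld1, a DNA repair subunit, which were 1.22 and 1.14 higher on the log2 scale (edgeR adjusted p = 0.00034 and 0.00032).

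Among unlisted genes lower at ZT12, Spon2, a secreted matrix protein, had the largest fall among those at a mean of 5 CPM or more, from 12.0, 9.52, 8.04, 15.1 and 18.3 CPM to 1.87, 0.590, 2.38, 3.82 and 1.53 CPM (log2 fold change -2.62 ± 0.32, edgeR adjusted p = 0.00020). Slc41a3, a magnesium transporter, fell from 85.5, 97.4, 74.1, 115 and 112 CPM to 38.2, 36.9, 39.0, 35.6 and 32.4 CPM (log2 fold change -1.42 ± 0.11, edgeR adjusted p = 1.1e-06). The metalloprotease Adam19 was 2.66-fold lower, and Leo1, which acts in transcript elongation and whose promoter is shown above, 2.52-fold lower, at 16.6 to 23.9 CPM against 6.74 to 10.5 CPM (edgeR adjusted p = 0.00014 and 2.9e-05). Tmem171, Arap2, Klhdc8a and Trp53i11 had log2 fold changes of -1.15, -1.04, -1.03 and -1.01, each without overlap. Relt, a TNF receptor family member, was also called (log2 fold change -0.96 ± 0.20, edgeR adjusted p = 0.018), but not without ZT0 replicates 1 or 5 or ZT12 replicates 4 or 5 (adjusted p of 0.052 to 0.066).

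Placed among the 6 times sampled in CON hearts, with levels scaled over all 30 CON libraries, ZT0 and ZT12 lay at or near the extremes for most called genes. Of the 116 genes higher at ZT12, 79 had their highest mean at ZT12 and 61 their lowest at ZT0, and of the 108 lower genes, 92 had their lowest mean at ZT12 and 62 their highest at ZT0, with ZT4 replicate 4 left out of these means because 77.6% of its counts were mitochondrial. Since these genes were chosen for a difference between these 2 times, the counts are a description. Arntl fell from 20.1 ± 1.24 CPM at ZT0 through 10.7 ± 2.48 CPM at ZT4 and 2.16 ± 1.29 CPM at ZT8 to 0.911 ± 0.486 CPM at ZT12, and was back to 14.8 ± 1.61 CPM at ZT20 (SD, n = 5 each). Dbp was already at 81.9 ± 20.6 CPM at ZT8, not separate from 64.1 ± 11.0 CPM at ZT12 by its spread.

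Some clock genes had their highest or lowest mean at other times, whether or not they were called between ZT12 and ZT0. Bhlhe40, which was called, had its highest mean at ZT8 (33.5 ± 7.90 CPM, beside 26.8 ± 5.39 CPM at ZT12), a difference within the spread. Nr1d1 had means of 22.2 ± 8.32 CPM at ZT0 and 38.3 ± 8.93 CPM at ZT12, but 69.5 ± 7.83 CPM at ZT8 and 9.59 ± 2.11 CPM at ZT20 (SD, n = 5 each). Cry1 was 11.9 ± 2.02 and 9.39 ± 1.95 CPM at ZT0 and ZT12, but 5.96 ± 1.15 CPM at ZT8 and 13.7 ± 1.88 CPM at ZT20 (SD, n = 5 each). Fkbp5, of the glucocorticoid-responsive list, had its lowest mean at ZT8 (8.38 ± 1.70 CPM) and its highest at ZT12 (26.2 ± 7.94 CPM). These levels were not tested against each other.

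**Figure D4:**
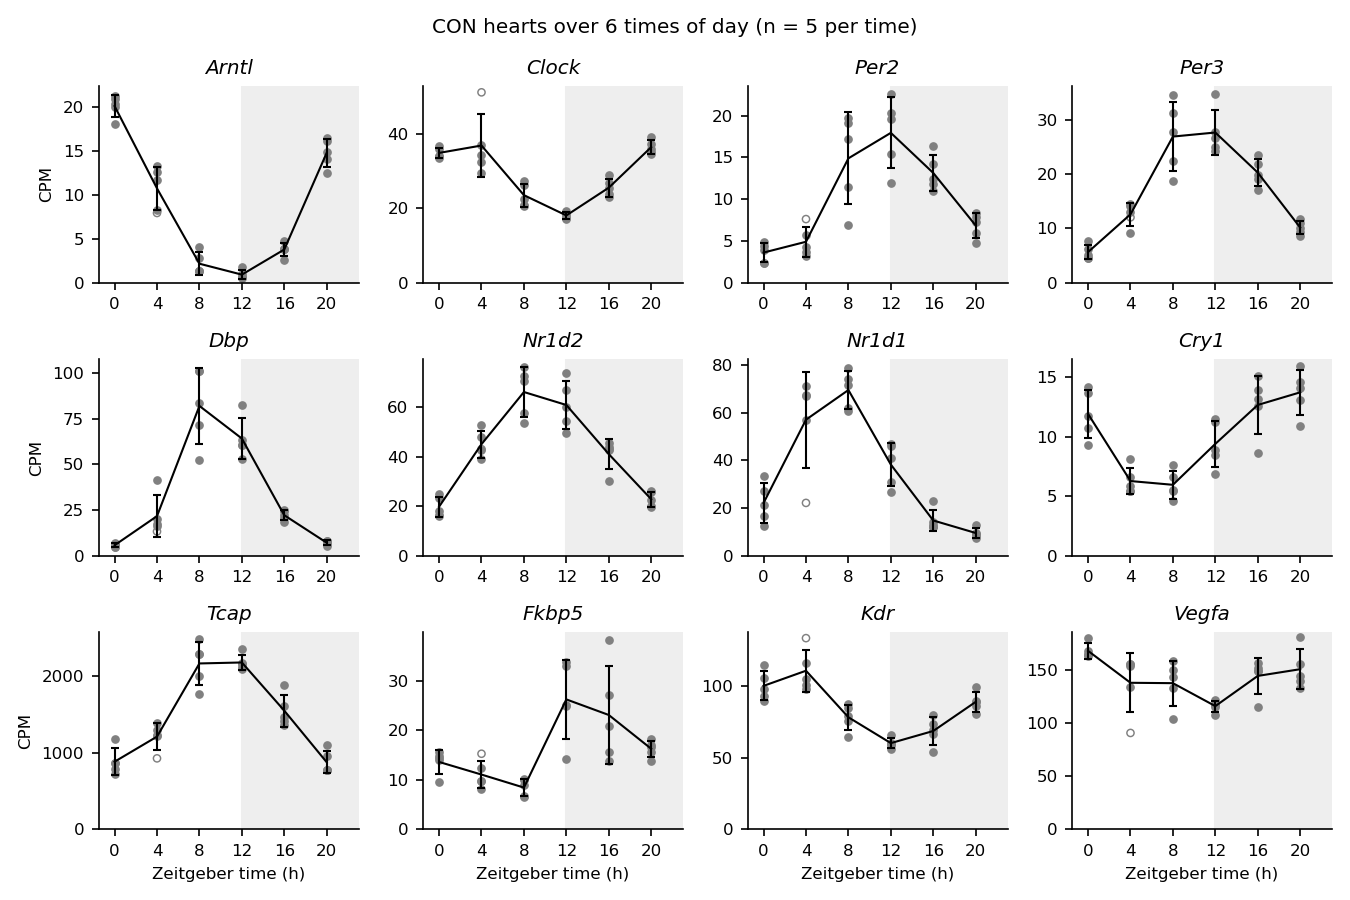
CPM (linear axes from 0) of 12 transcripts in 30 CON hearts against Zeitgeber time in hours, with each heart as a point, means joined by a line, SD as error bars (n = 5 per time) and the dark phase in grey. The open circle is ZT4 replicate 4, and Nr1d1 and Cry1 have their extremes at ZT8 and ZT20 rather than at ZT0 or ZT12.

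Hearts that had no part in the calls mostly differed in the same directions. In the 20 CON hearts of the flanking times, the mean of ZT8 and ZT16, each 4 h from ZT12, was compared with the mean of ZT20 and ZT4, each 4 h from ZT0. Among the 116 genes called higher at ZT12, 105 were also higher at the flanking times, and among the 108 called lower, 102 were also lower (90.5% and 94.4%), against 60.7% of all genes measured in both. Their median log2 fold changes were 0.27 and -0.32, smaller than the 0.66 and -0.62 of the comparison that chose them. The flanking comparison itself called 32 of 14839 genes (0.216%), 15 higher and 17 lower (0.101% and 0.115%), and 1454 reached an unadjusted p under 0.05 (9.8%). Of the 32, 26 were among the 224, all in the same direction, which is 81.2% of the one list and 11.6% of the other.

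Those 26 held Arntl (-2.18 ± 0.19), Dbp (1.74 ± 0.17), Per2 (1.31 ± 0.18), Per3 (1.04 ± 0.11) and Clock (-0.58 ± 0.09) of the clock, as log2 fold changes ± SE, and also Tcap (0.83 ± 0.10), Tspan4 (0.88 ± 0.11), Rhobtb1 (0.83 ± 0.12), Spon2 (-1.76 ± 0.24), Col5a3 (-0.99 ± 0.13), Kdr (-0.44 ± 0.08), Wee1 (0.89 ± 0.14), Herpud1 (0.62 ± 0.10) and Usp2 (0.56 ± 0.07). The 8 glucocorticoid-responsive genes called at ZT12 were all above 0 at the flanking times and none passed the test there, with 0.96 ± 0.21 for Per1 (edgeR adjusted p = 0.058), 0.57 ± 0.15 for Klf15 (edgeR adjusted p = 0.13), 0.42 ± 0.13 for Glul, 0.30 ± 0.15 for Mt1, 0.22 ± 0.10 for Tsc22d3, 0.20 ± 0.31 for Zbtb16, 0.08 ± 0.16 for Fkbp5 and 0.03 ± 0.12 for Klf9. Vegfa was at -0.04 ± 0.10 (edgeR adjusted p = 0.91). Leaving out ZT4 replicate 4, the mitochondria-rich library, raised the flanking calls to 99, moved Per1 to 1.15, Klf15 to 0.49 and Zbtb16 to 0.66, all 3 then called (edgeR adjusted p = 7.1e-05, 0.019 and 0.042), moved Flt1 from -0.49 to 0.11, and put 114 of the 116 higher and 104 of the 108 lower genes in the same direction.

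**Figure D5:**
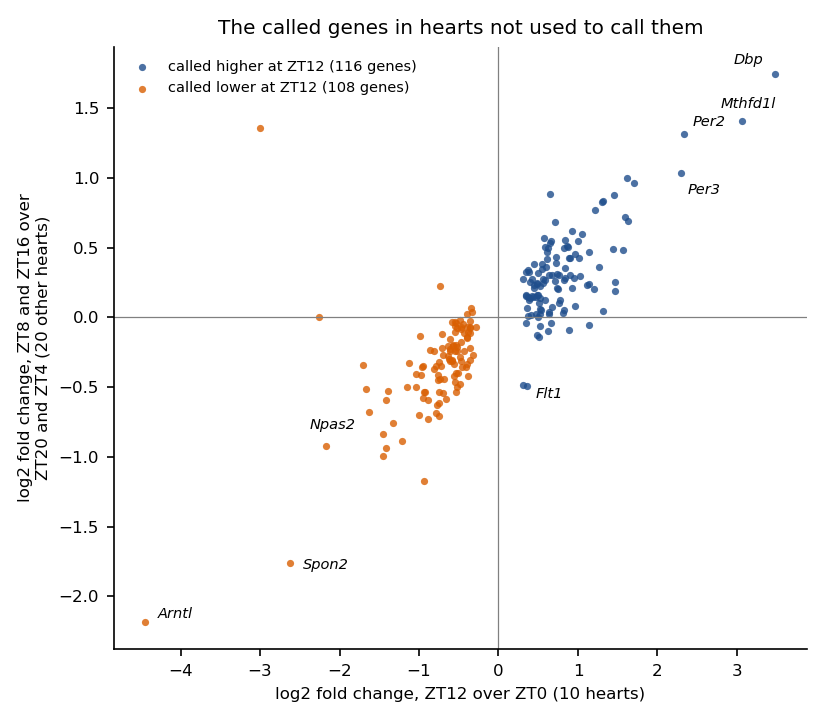
Log2 fold change at the flanking times (ZT8 and ZT16 over ZT20 and ZT4, 20 hearts, vertical axis) against that of ZT12 over ZT0 (10 other hearts, horizontal axis) for the 224 called genes, blue where higher and orange where lower at ZT12. Most points lie in the 2 quadrants of equal sign, 105 of 116 and 102 of 108, with Flt1 and the gene model Gm43305 (orange point above 1) among those outside.

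For dnOGAh hearts, the library labelled dnOGAh ZT12 replicate 3 stood apart from the other 4 of its group. Cd68, a macrophage marker, was at 16.4 CPM in it and at 130.3 to 302.0 CPM in the other 4, beside 16.8 ± 5.08 CPM in CON ZT12 hearts on the same scale. Loxl2, a collagen cross-linking enzyme, was at 21.2 CPM against 104.5 to 125.1 CPM, and Tcap, a sarcomere protein, was at 4066 CPM against 371 to 1088 CPM (CON ZT12 21.7 ± 5.20 and 2626 ± 139 CPM). The ZT12 to ZT0 difference of dnOGAh hearts was set beside that of CON hearts by an interaction term over 20 libraries. No gene of 16155 was called by edgeR (0%), while 513 reached an unadjusted p under 0.05 (3.18%), DESeq2 called 6 and limma-voom 0. Of the 224 genes, 102 of the 116 higher and 93 of the 108 lower in CON hearts had the same sign in dnOGAh hearts (87.9% and 86.1%), against 59.6% of all genes measured in both, with medians of 0.40 and -0.27. Without replicate 3 these shares were 89.7% and 92.6%, against 56% of all genes, with medians of 0.29 and -0.23. In dnOGAh hearts alone, the same edgeR test of ZT12 against ZT0 called 5 of 16210 genes, and 16 genes without replicate 3. Of the 116 and 108 genes, 3 and 2 were called there in the same direction, and 10 and 5 without replicate 3. Arntl was 19.5 ± 3.75 CPM at ZT0 and 3.03 ± 1.23 CPM at ZT12 in dnOGAh hearts, beside 23.9 ± 1.50 and 1.09 ± 0.577 CPM in CON hearts on the same scale, a genotype difference of 1.77 ± 0.40 on the log2 scale (edgeR adjusted p = 0.74). Leaving out dnOGAh ZT12 replicate 3 (ZT12 level 3.57 ± 0.253 CPM in the other 4) made it 1.97 ± 0.27 and the only call (edgeR adjusted p = 0.0054).

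Tspan4 had the smallest p of all genes in this term, with 44.3 ± 4.70 and 63.9 ± 11.0 CPM in dnOGAh hearts against 17.5 ± 1.48 and 48.5 ± 7.30 CPM in CON hearts (genotype difference -0.94 ± 0.18, edgeR adjusted p = 0.46). Phgdh and Mthfd1l, which rose in CON hearts, stood at 6.38 ± 0.459 and 6.20 ± 1.48 CPM and at 3.73 ± 0.822 and 6.12 ± 2.54 CPM in dnOGAh hearts (genotype differences -1.36 ± 0.31 and -2.36 ± 0.54, edgeR adjusted p = 0.74 for each). Without replicate 3, these differences were -0.85 ± 0.15 for Tspan4, -1.27 ± 0.30 for Phgdh and -2.18 ± 0.49 for Mthfd1l (edgeR adjusted p = 0.082, 0.40 and 0.35). The remaining genes of smallest p were Ptpn4, Synj2, Slc41a3, Amigo3, Trib1 and Arap2, with genotype differences of 0.77 ± 0.17, -0.58 ± 0.13, 0.78 ± 0.18, 1.32 ± 0.31, -0.82 ± 0.20 and 0.98 ± 0.24 (edgeR adjusted p of 0.74 to 0.99). The calls of DESeq2 were Tspan4, Mthfd1l, Arntl, Synj2, Ptpn4 and Phgdh.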

How the data were processed

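Poly(A) RNA of 60 hearts, 1 directional, paired-end library per heart, had been sequenced by the authors. The deposited table holds whole-number counts per gene that the authors made with Trim Galore 0.6.7, STAR 2.7.10b and HTSeq 2.0.2 on GRCm39, the tools and build that the submitters' processing notes name. The annotation release and the strand setting of the counting are not given in the sources used here, so reads of overlapping antisense genes cannot be told apart. The 5 summary lines of the table, 30.9 to 34.9% of the sum in these 10 libraries, were left out. The 10 libraries held 11609932 to 48194288 counts, and no 2 of them were identical.

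Counts were fitted in edgeR 4.0.16 (R 4.3.3) with filterByExpr at a minimum count of 10, TMM factors and the quasi-likelihood test, with p-values adjusted by Benjamini and Hochberg over all genes tested. Log2 fold changes are ZT12 minus ZT0, and CPM are per 1000000 counts after TMM. The SE of a log2 fold change was derived as its absolute value over the square root of the quasi-likelihood F statistic. The study describes a rhythm test over 6 times and no test of 2 groups of counts. Replicates were separate hearts, so the p-values measure the spread between hearts. The same test was used for 20 CON hearts at flanking times and for the genotype difference over 20 libraries. It was also used for ZT12 against ZT0 in dnOGAh hearts alone. Alternatives were RLE factors, DESeq2 1.42.0, limma-voom (limma 3.58.1), other filters, thresholds and samples in the fit, thinning and a replicate block.

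The comparison, the 64 gene lists (1235 genes, 1158 tested) and the tests were chosen with earlier results of these data known. Genes were named by rule: tested members of the clock lists, in each direction the 15 largest changes among called genes with a symbol, a mean of at least 5 CPM and no overlap, the 10 smallest p in each direction, up to 4 called members of each list (or, with none called, the member of largest change at 5 CPM or more), and the 10 smallest p of the genotype difference. Glul, Tsc22d3, Mt2, Sgk1, Dusp1, Errfi1, Mmp15, Ogt, Mgea5, Lonrf1, Ap1m1 and Gm43305 fall outside that rule and were chosen after their values were seen, as were those of the last part of the closing section. Promoter windows came from RefSeq on GRCm38.p6, another build than that of the counts. A few genes that the rule names are not reported here.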

Additional observations from a re-analysis of the deposited data

Results flagged for a closer look

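Within a group of 5 hearts, 1 library stood far from the others in 9 of the 158 groups examined (79 called genes at each time, Dixon's criterion), and chance alone gives about 1 in 20. At ZT12, Usp2 was lowest in replicate 4 (211.7 CPM, next 253.4 CPM), Timp3 in replicate 3 (13.95 CPM, next 23.43 CPM) and Aplnr in replicate 5 (22.97 CPM, next 29.95 CPM). Col5a3 was highest in ZT12 replicate 1 (17.78 CPM, next 10.11 CPM) and Relt in ZT12 replicate 3 (5.36 CPM, next 3.486 CPM). At ZT0, Vegfa was highest in replicate 3 (185 CPM, next 172.2 CPM), Klf9 in replicate 1 (149.6 CPM, next 134.7 CPM) and Rpl3 in replicate 4 (137.5 CPM, next 113.5 CPM), and Fkbp5 was lowest in replicate 2 (9.671 CPM, next 14.37 CPM).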

How the results depend on the processing

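No call of the 79 named genes turned direction in any fit run, and 32 of them were called in every one. Of 224 calls (116 higher, 108 lower), DESeq2 gave 416 (204 and 212), no filter on low counts 344 (197 higher), an adjusted p under 0.01 109 (55 and 54) and under 0.10 365 (180 and 185). With all 30 CON libraries in the fit 120 were called (55 and 65), with all 60 libraries 69 (36 and 33), and without the 2 deepest libraries, chosen after seeing the data, 102 (52 and 50). The fits kept 223, 216, 117, 65 and 100 of the 224 genes under DESeq2, no filter, 30 CON libraries, 60 libraries and without the 2 deepest. The cause was not tested. RLE factors, limma-voom, a mean of at least 1 CPM, robust dispersion, thinning and leaving out mitochondrial genes gave 210 to 262 calls. Leaving out 1 library gave 154 to 258 calls, 79 to 138 higher and 72 to 120 lower.

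The labels number the replicates and name no pairs, so same-numbered hearts of the 2 times were treated as unpaired. Their deviations correlated by -0.030 to 0.139, with 2 of 5 pairs over 0.1, beside a median of -0.010 for the other pairs. With the replicate block, 318 genes were called, 181 higher and 137 lower, and 214 of the 224 remained, with Phgdh, Wee1, Ccl11 and Amigo3 among those lost.

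The flanking comparison (32 calls, 15 higher and 17 lower) gave 100 by DESeq2 (48 and 52), 64 by limma-voom (31 and 33) and 24 to 99 with 1 library left out (13 to 51 higher, 11 to 48 lower), the fewest without ZT16 replicate 2 and the most without ZT4 replicate 4. The genotype difference (0 calls) gave 6 by DESeq2 (2 higher, 4 lower) and 0 to 1 with 1 library left out (0 to 1 higher), the 1 without dnOGAh ZT12 replicate 3. With 5 hearts per time, at 11609932 counts in the shallowest, differences that miss the threshold may still exist.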

Other observations

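Called genes outside the lists, chosen after their values were seen, included further transcripts known from endothelium. Lower at ZT12 were Tnfaip2 (log2 fold change -0.81 ± 0.11, edgeR adjusted p = 0.00040), the protocadherin Pcdh12 (-0.78 ± 0.14, edgeR adjusted p = 0.0058), the laminin receptor subunit Itga6 (-0.61 ± 0.11, edgeR adjusted p = 0.0064) and the surface receptor Cd93 (-0.56 ± 0.13, edgeR adjusted p = 0.031). The transcription factors Bcl6b, Ets1 and Prox1, the last of which specifies lymphatic vessels and is also made by cardiomyocytes, had log2 fold changes of -0.54 ± 0.12, -0.48 ± 0.11 and -0.47 ± 0.10 (edgeR adjusted p = 0.027, 0.035 and 0.028). Ly6c1, a surface protein of capillary endothelium, went the other way, with 113 to 146 CPM at ZT0 and 139 to 226 CPM at ZT12 (log2 fold change 0.54 ± 0.11, edgeR adjusted p = 0.017). The summed endothelial marker level overlapped between the times, as given in the report. Of the 14 markers in that fixed list, 5 had a log2 fold change above 0, and the median was -0.07. Genes picked in this way do not show how endothelial transcripts moved as a set.

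Among genes of cardiomyocytes, Lrrc10, a cardiac leucine-rich repeat protein, was 84.6 to 111 CPM at ZT0 and 130.5 to 165 CPM at ZT12 (log2 fold change 0.62 ± 0.09, edgeR adjusted p = 0.00096), and Asb2, a ubiquitin ligase subunit, was lower at ZT12 (log2 fold change -0.35 ± 0.06, edgeR adjusted p = 0.0068). Aqp7, a glycerol channel, fell, with 24.6 to 40.6 CPM at ZT0 and 12.7 to 22.5 CPM at ZT12 (log2 fold change -0.73 ± 0.16, edgeR adjusted p = 0.022). The kinase Pim3, the lipogenesis regulator Mid1ip1 and the conjugating enzymes Sult1a1 and Gstt2 were higher at ZT12, with log2 fold changes of 0.83 ± 0.11, 0.87 ± 0.11, 0.78 ± 0.12 and 1.02 ± 0.15 (edgeR adjusted p = 0.00029, 0.00022, 0.0022 and 0.00076). Mgp, an inhibitor of calcification, and the nuclear RNA Neat1 were also higher (log2 fold change 0.77 ± 0.14 and 0.66 ± 0.14, edgeR adjusted p = 0.0072 and 0.017).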
